A study of Mus musculus with 24 samples.

Results

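The cytochrome P450 superfamily was followed through mammary tumor development in 96 genes out of the 37991 of the count table. These are the protein-coding genes whose GENCODE M1 symbol is Cyp, a family number, a subfamily letter and a gene number, so that Cyp51, which has no subfamily letter, was not a member. The members fall into 16 families. RNA-seq had been run on mammary tumors or glands of 24 female mice, with 3 PyMT and 3 FVB mice at each of 4 ages. PyMT mice were F1 females heterozygous for the MMTV-PyVT transgene, which expresses the polyoma virus middle T antigen from the mouse mammary tumor virus promoter in the mammary epithelium, and were bred from PyMT males and FVB females. Control mice were homozygous FVB females of the same ages without the transgene. Tissue was taken from PyMT mice of 6, 8, 10 and 12 weeks of age, ages that the study staged as hyperplasia, then adenoma/MIN, then early and last late carcinoma. Both groups shared the FVB background. The tumors of PyMT mice were compared with normal mammary glands, which hold fat, vessels and connective tissue beside epithelium.

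Cytochrome P450 enzymes hold a heme whose iron is bound by a cysteine of the protein, and they insert 1 atom of oxygen into their substrate with electrons that come from a reductase. Members of the low-numbered families oxidise drugs, other foreign compounds and fatty acids and are known best from the liver, whereas members of the high-numbered families make or break down single hormones, vitamins, sterols and bile acids. In the mammary gland, P450 enzymes are known for the local oxidation of estrogens, for the supply and removal of the active forms of vitamin A and vitamin D, and for the metabolism of fatty acids in the fat pad.

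The heme-binding stretch is the part that nearly all members share, and it is shown here for the genes on which the results turn. Of the 96 members, 88 encode the signature around the heme-binding cysteine in a protein-coding transcript of the GENCODE M1 annotation. Each run gives 30 bases of coding sequence from 5′ to 3′, with the cysteine codon in capitals.
Cyp1b1: ttctcagtgggcaaacggaggTGCatcggt
Cyp2e1: ttttctgcaggaaagcgcgtgTGTgttgga
Cyp3a57: tttgggaatggacccaggaacTGCataggc
Cyp4b1: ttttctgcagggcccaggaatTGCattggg
Cyp4v3: ttttctgctggacctcgaaacTGTattggt
Cyp24a1: tttggcgtcgggaagaggatgTGCatcggg
Cyp26a1: tttggaggaggccttcggagcTGTgtaggc
Cyp26b1: tttggcggtggcgtgcggaccTGCctgggc
The cysteine codon was TGC in 55 of the 88 members and TGT in 33. Cyp2s1, Cyp7b1, Cyp20a1 and Cyp39a1 were the tested members in which the signature as searched was not found.

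Many P450 genes had no counted reads in mammary tissue. Of the 96 members, 37 had 0 counts in all 24 libraries, 59 had a count in at least 1 library, and 22 passed the filter on low counts, which asked for 1 CPM (the count scaled to a common library total) or more in 12 or more of the 24. Total counts of these libraries ran from 6969375 to 13516601, with a median of 8280270. If reads were independent, a count of 0 would allow up to 0.430 CPM in the smallest and 0.222 CPM in the largest, from counting error only. The smallest, FVB week 12 replicate 2, and the largest, PyMT week 6 replicate 3, are among the libraries described below whose reads are not independent. The limits therefore do not hold in them. Genes at 0 included Cyp1a1 and Cyp1a2, the dioxin-inducible members of family 1, Cyp3a11, a main drug-oxidising enzyme of mouse liver, Cyp8b1 of bile acid synthesis, Cyp11b1 of corticosteroid synthesis, and Cyp19a1, the aromatase that makes estrogens. Family 2, the largest, had 49 members, of which 25 were at 0 and 8 were tested, and its Cyp2a subfamily was at 0 in all 4 members and its Cyp2c subfamily in 11 of 15. Some of these genes at 0 share sequence with others. Of the 50-base words of the transcript, 36.5% in Cyp2a4, 72.0% in Cyp2c40 and 0.53% in Cyp2c29 also occur in other genes. How reads that match several genes were counted is not given in the sources used here. Family 4 had 17 members, with 3 at 0 and 5 tested, and family 3 had 9, with 4 at 0 and 1 tested. The tested members were Cyp1b1, Cyp2d10, Cyp2d22, Cyp2e1, Cyp2f2, Cyp2j6, Cyp2j9, Cyp2s1, Cyp2u1, Cyp3a57, Cyp4b1, Cyp4f13, Cyp4f16, Cyp4f17, Cyp4v3, Cyp7b1, Cyp20a1, Cyp24a1, Cyp26b1, Cyp27a1, Cyp39a1 and Cyp46a1, and 10 of these reached 1 CPM in all 24 libraries.

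Cell type markers differed between the groups in the same libraries. The summed normalized counts (counts divided by DESeq2 size factors) of 8 adipocyte markers ran from 46492 to 129895 in FVB and from 1014 to 15457 in PyMT, and those of 6 endothelial markers from 4180 to 7629 and from 666 to 1970. The 8 luminal and general epithelial markers were present in all 24 libraries and went the other way, from 4341 to 19108 in FVB and from 21161 to 40310 in PyMT. The 8 basal and myoepithelial markers ran from 4538 to 16192 in FVB and from 1295 to 5968 in PyMT, the 6 fibroblast markers from 48426 to 186401 and from 21429 to 44769, and the 7 macrophage markers matched from 2483 to 6258 and from 2105 to 4484. Lymphocyte markers summed to at most 97.1 in any library, steroidogenic markers to at most 72.3, and skeletal muscle markers ran from 79.3 to 608363 in FVB and from 0 to 34339 in PyMT. Hepatocyte markers summed to 43.0 to 269 in FVB and to 0 to 50.6 in PyMT, with Apoa2 and Ttr at 0 in all 24 libraries, and the 1 of these 7 markers that was tested was called lower at weeks 6, 8 and 12. In these bulk samples, fewer cells of a type and less RNA per cell cannot be told apart, and the part of the cell type mixture in the P450 results was not tested. A histogram of counts over genes peaked at 8 to 25 counts, in place of the lowest counts, in 6 PyMT and 7 FVB libraries. The limits set by a count of 0 take reads as independent, which does not hold in such libraries. Among these, FVB week 10 replicate 3 and PyMT week 8 replicate 2 had the largest shares of moderately expressed genes at a count of 0, 4.40% and 2.87%.

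**Figure D1:**
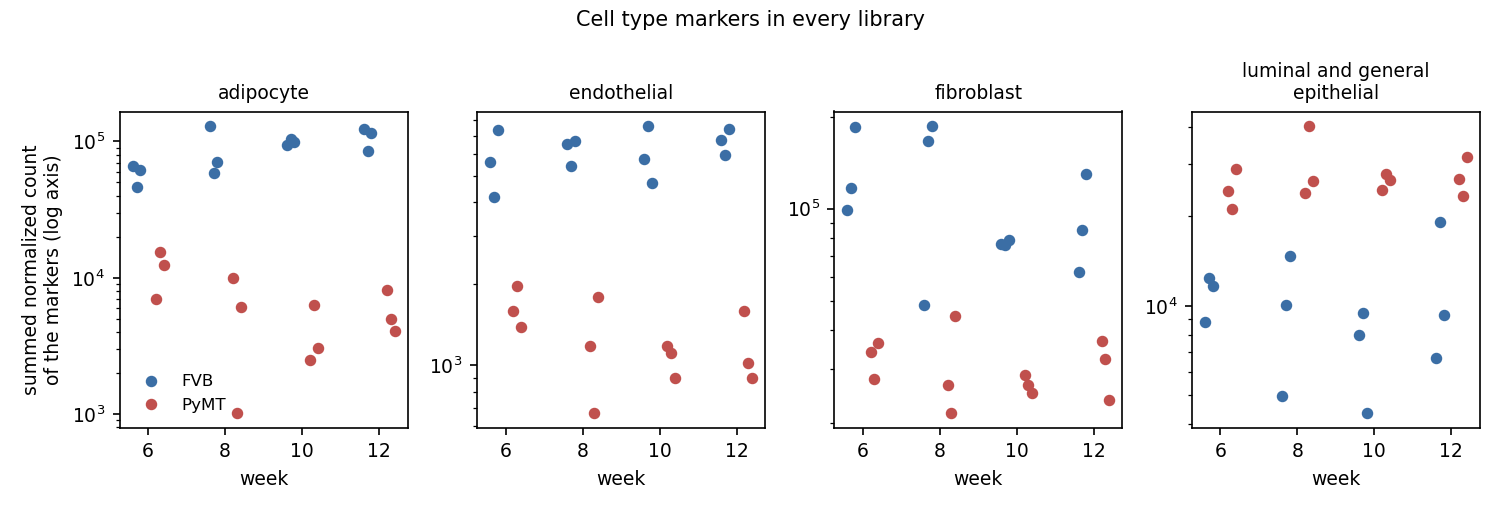
Summed normalized counts of 4 marker lists (log axis) by week, 1 point per library, with FVB in blue and PyMT in red. Adipocyte, endothelial and fibroblast markers lie lower in every PyMT library than in every FVB library, from 1014 to 15457 against 46492 to 129895 for adipocytes, and epithelial markers lie higher.

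Cyp2e1 made up most of the P450 message of the normal gland, and a smaller share of it in PyMT. Levels were compared between genes per length, as normalized counts per kb of exon. Summed over the 96 members, this level was 3222 ± 538 (SD, n = 3) in FVB and 942 ± 131 in PyMT at week 6, 4543 ± 2050 and 759.9 ± 53.7 at week 8, 4327 ± 1081 and 724 ± 109 at week 10, and 6383 ± 1826 and 736 ± 146 at week 12. Cyp2e1 held 53.4% to 75.5% of the sum in the 12 FVB libraries, with a median of 61.3%, and from 0.130% (in PyMT week 8 replicate 2) to 46.6% in the 12 PyMT libraries, with a median of 12.6%, so the ranges did not overlap. The lowest FVB level of Cyp2e1 (1522 per kb) lay above the highest of any other member. Next in FVB by the median level per kb came Cyp4b1 (262), Cyp4v3 (167), Cyp2d22 (121) and Cyp20a1 (93.5), against 2450.2 for Cyp2e1, and among these 4 the range of each overlapped that of the next. Among the PyMT libraries the order was Cyp20a1 (105), Cyp2e1 (95.5), Cyp4f17 (64.9), Cyp2d22 (55.9) and Cyp2f2 (47.5), whose ranges over the 12 libraries overlapped from each to the next. Without Cyp2e1, the summed level per kb was 1319 ± 92.2 (SD, n = 3) in FVB and 614 ± 38.8 in PyMT at week 6, and 1961 ± 171 and 656 ± 79.6 at week 12.

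**Figure D2:**
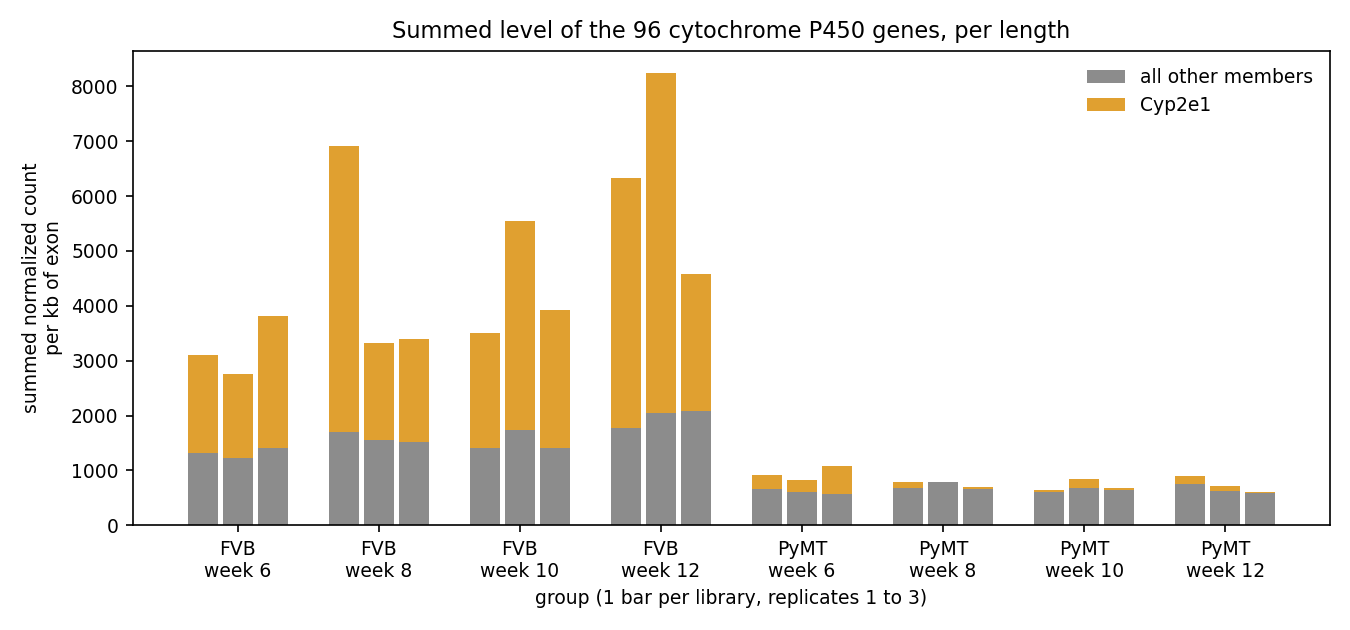
Summed level of the 96 members as normalized counts per kb of exon, 1 bar per library, with Cyp2e1 in yellow on top of the other 95 genes in grey. The FVB bars range from 2751 to 8236 and the PyMT bars from 605 to 1081, and most of the FVB height is Cyp2e1.

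At each week, 3 PyMT libraries were compared with 3 FVB libraries by edgeR, and a gene was called when its adjusted p was below 0.05 and it differed by more than 1 on the log2 scale. More of the tested members were called lower than higher at every week. At week 6, 3 of the 22 tested members were called lower (Cyp2e1, Cyp4b1, Cyp4v3) and 1 higher (Cyp24a1), where 6.46% of all 14918 tested genes were called lower and 3.58% higher. At week 8, 6 were called lower (Cyp1b1, Cyp2d22, Cyp2e1, Cyp2j6, Cyp3a57, Cyp4v3) and 1 higher (Cyp24a1), against 6.37% and 3.57% of all tested genes. Week 10 had 5 lower calls (Cyp1b1, Cyp2e1, Cyp3a57, Cyp4b1, Cyp4v3), against 9.09%, and 0 higher calls by edgeR's quasi-likelihood test, against 4.83%, although 2 members (Cyp2d10, Cyp24a1) were higher at an unadjusted p under 0.05 and DESeq2 and edgeR's exact test each called 2 higher. Week 12 had 12 lower calls, against 13.0%, and 0 higher calls by the same test, against 7.75%, with 1 member (Cyp2d10) higher at an unadjusted p under 0.05, 0 called higher by DESeq2 and 1 by limma voom. The lower calls of week 12 were Cyp1b1, Cyp2d22, Cyp2e1, Cyp2j6, Cyp2u1, Cyp3a57, Cyp4b1, Cyp4f13, Cyp4v3, Cyp26b1, Cyp27a1 and Cyp39a1. The median log2 fold change of the 22 was -0.999, -1.30, -0.91 and -1.56 at weeks 6, 8, 10 and 12, beside -0.08, -0.04, 0.01 and -0.00 over all tested genes. The filter needed 12 libraries, so a gene could enter through 1 genotype alone: Cyp3a57 reached 1 CPM in 12 FVB libraries and 1 PyMT library, and Cyp24a1 in 12 PyMT libraries and 1 FVB library. Cyp2d10 reached it in 10 PyMT and 2 FVB libraries. Cyp24a1 and Cyp2d10 thus entered mainly through PyMT, the genotype in which they were higher.

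Over the 4 weeks, in a fit of all 24 libraries in 8 groups, 13 of the 22 were called lower, against 17.5% of all tested genes, and 2 higher (Cyp2d10, Cyp24a1), against 8.70%. The lower genes were the 12 of week 12 and Cyp2j9. With no filter on low counts, edgeR also called Cyp2b10, Cyp4f15 and Cyp4f39 lower and Cyp2d9 and Cyp2d11 higher over the 4 weeks, and with a filter of 1 CPM in 3 libraries it also called Cyp4f15, Cyp4f39 and Cyp27b1 lower and Cyp2d9 higher. When the counts were scaled by library size alone, the all-gene median over the 4 weeks moved from -0.03 to 0.26 and 10 members were called lower, with Cyp2d22, Cyp4f13 and Cyp39a1 lost. In 5 members (Cyp2e1, Cyp2u1, Cyp4b1, Cyp4f13, Cyp4v3) all 12 PyMT values lay below all 12 FVB values, and in 0 they all lay above, where 7.22% and 4.67% of all tested genes did so. The calls of week 8 depended on single libraries: 6 lower calls became 1 without FVB replicate 2 or PyMT replicate 1, 2 without PyMT replicate 3, 3 without FVB replicate 3, and 4 without FVB replicate 1 or PyMT replicate 2. Without FVB week 10 replicate 3, 5 members were called lower at week 10, and without either that library or PyMT week 8 replicate 2 the fit over the 4 weeks called 13 lower and 2 higher.

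**Figure D3:**
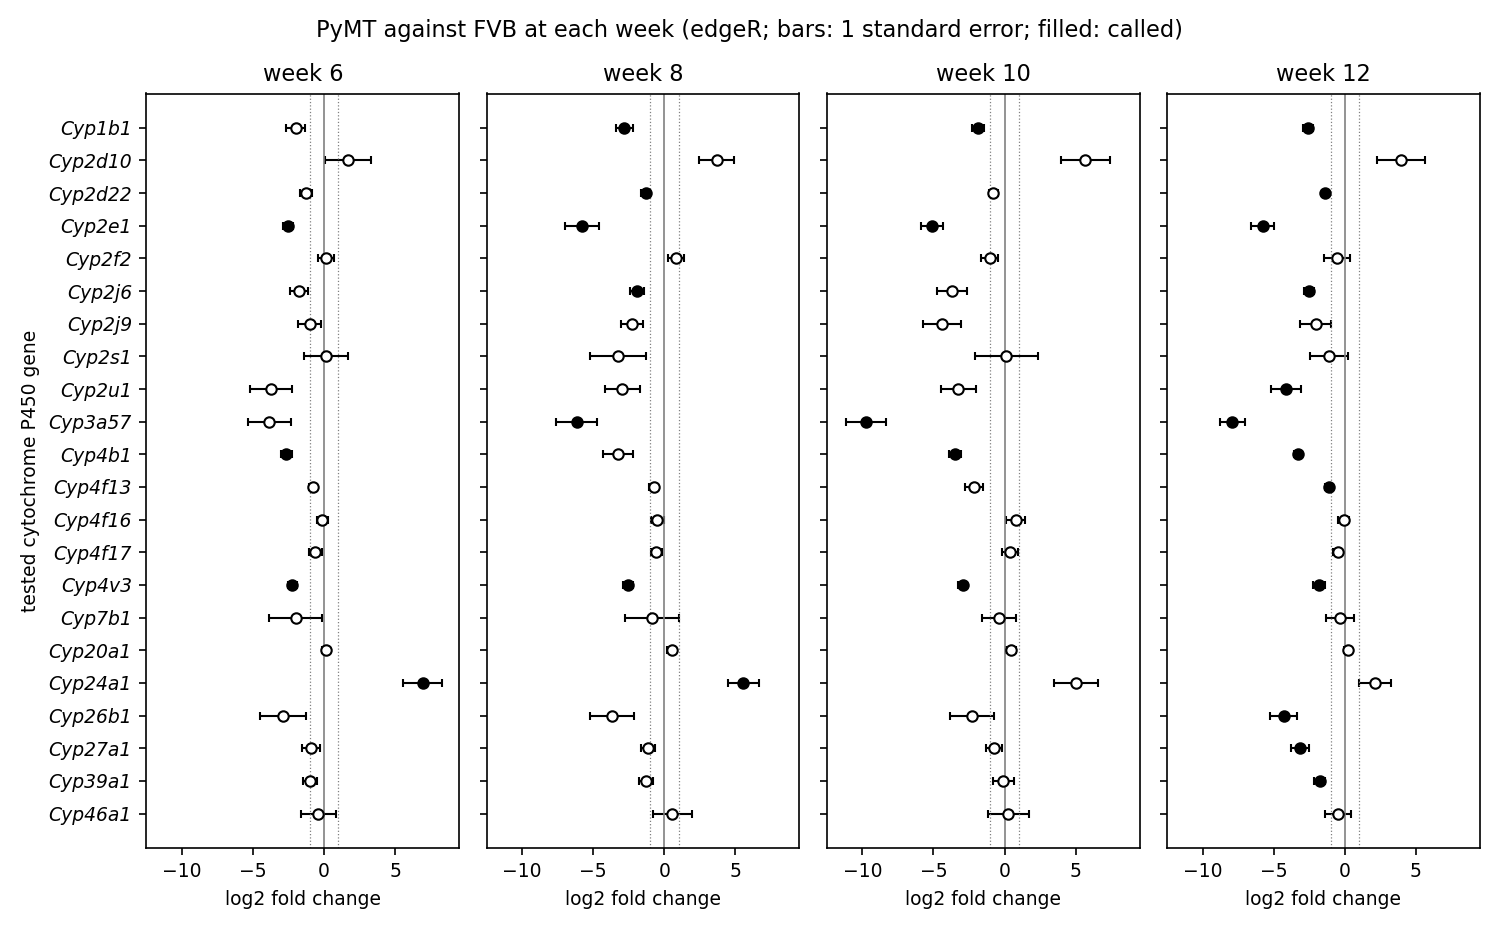
Log2 fold change of PyMT against FVB for the 22 tested members at each week, from edgeR, with bars of 1 standard error, filled points for calls and dotted lines at a log2 fold change of -1 and 1. Cyp2e1 and Cyp4v3 are filled on the left at every week, and Cyp24a1 is filled on the right at weeks 6 and 8.

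**Figure D4:**
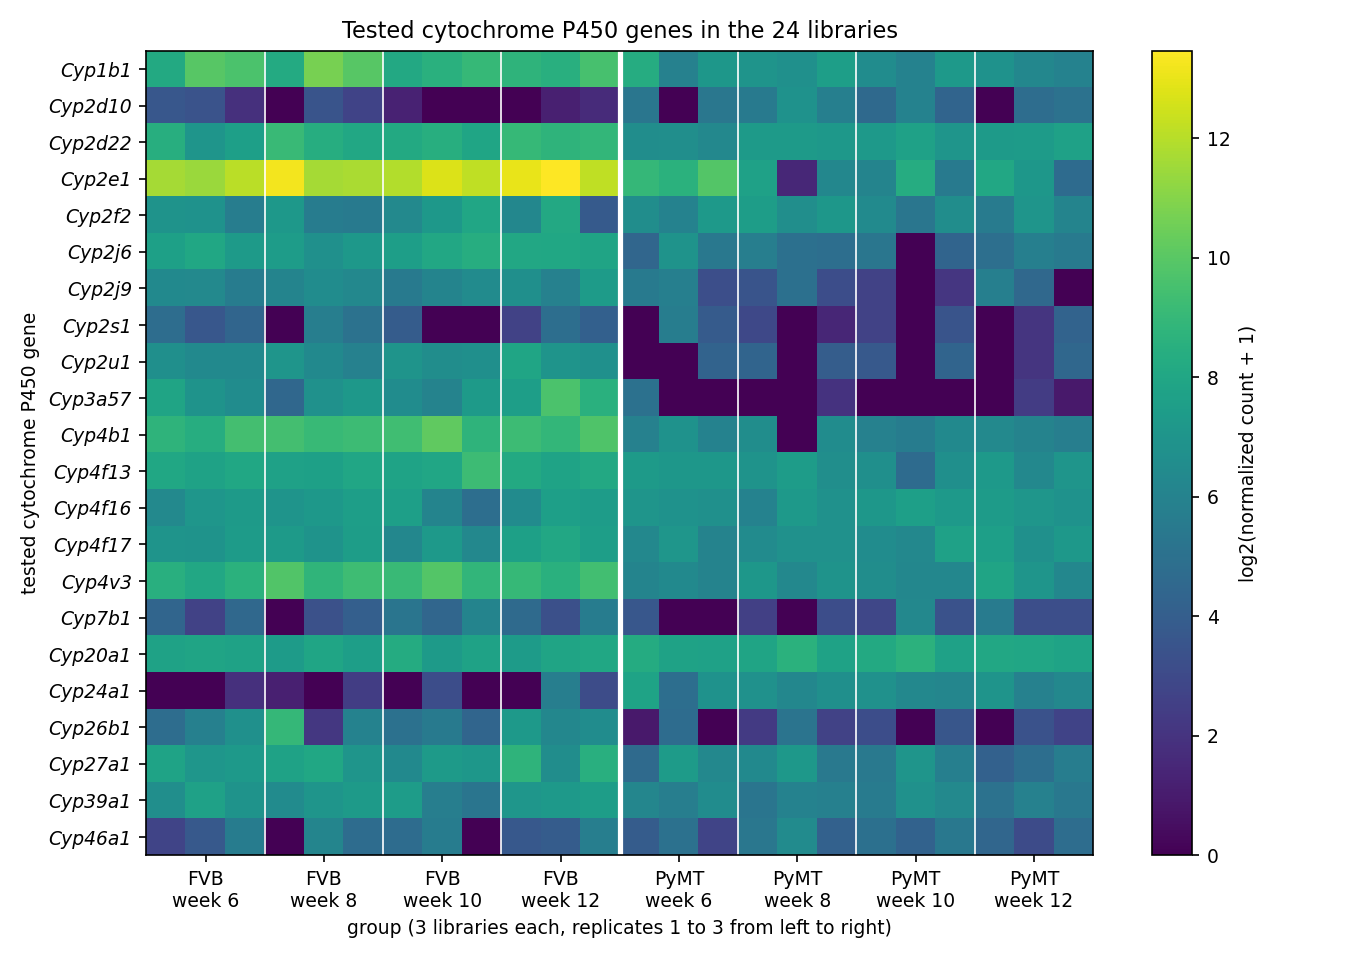
Level of the 22 tested members, as log2(normalized count + 1), in the 24 libraries, with FVB on the left and PyMT on the right of the thick line. Cyp2e1 is the brightest row in FVB, and Cyp24a1 and Cyp2d10 are the rows that are darker in FVB than in PyMT.

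Of the members that oxidise foreign compounds and small molecules, Cyp2e1 differed most in absolute level and was lower in PyMT than in FVB. Cyp2e1 (ENSMUSG00000025479, chr7:147949638-147960874, plus strand of mm9) encodes the enzyme that oxidises ethanol, acetone and other small molecules. In FVB, Cyp2e1 stood at 3274, 2781 and 4377 normalized counts at week 6, 9527, 3244 and 3423 at week 8, 3811, 6965 and 4598 at week 10 and 8335, 11322 and 4576 at week 12. In PyMT, Cyp2e1 stood at 495, 382 and 919.6 normalized counts at week 6, 208, 1.88 and 74.1 at week 8, 67.6, 325 and 45.2 at week 10 and 270.4, 141 and 25.0 at week 12. Every PyMT value lay below every FVB value, and the lowest was that of PyMT week 8 replicate 2. Among the PyMT libraries, that library had the lowest adipocyte marker sum and also the largest share of moderately expressed genes at a count of 0 (2.87%). Whether either bears on its Cyp2e1 value was not tested. Cyp2e1 had log2 fold changes in PyMT against FVB of -2.53 ± 0.36, -5.81 ± 1.21, -5.11 ± 0.78 and -5.76 ± 0.81 (± SE) in weeks 6, 8, 10 and 12, with edgeR adjusted p of 0.00464, 0.0231, 0.00412 and 0.00156. For Cyp2e1 the log2 fold change over all 4 weeks was -4.81 ± 0.50 (SE; edgeR adjusted p = 8.72e-08). This gene was called lower at all 4 weeks, and the fitted change corresponds to 5.78-fold lower at week 6 and 54.2-fold lower at week 12. Without FVB replicate 2, PyMT replicate 1 or PyMT replicate 3 of week 8 its adjusted p at that week was 0.0595, 0.05002 and 0.0895, and in the joint fit of all 24 libraries that of week 6 was 0.0622.

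Cyp3a57 (ENSMUSG00000070419, chr5:146106148-146151381, plus strand of mm9) belongs to the subfamily of broad drug-oxidising enzymes. In FVB, Cyp3a57 stood at 233, 120.3 and 92.5 normalized counts at week 6, 21.4, 112 and 142 at week 8, 91.3, 65.1 and 161 at week 10 and 187, 815 and 369.6 at week 12. In PyMT, Cyp3a57 stood at 31.2, 0 and 0 normalized counts at week 6, 0, 0 and 2.94 at week 8, 0, 0 and 0 at week 10 and 0, 4.27 and 0.924 at week 12. The gene was near or at 0 in PyMT except for replicate 1 of week 6, and within each week the groups did not overlap. Cyp3a57 had log2 fold changes in PyMT against FVB of -3.85 ± 1.53, -6.17 ± 1.46, -9.76 ± 1.40 and -7.93 ± 0.88 (± SE) in weeks 6, 8, 10 and 12, with edgeR adjusted p of 0.151, 0.035, 0.00732 and 0.000587. For Cyp3a57 the log2 fold change over all 4 weeks was -6.92 ± 0.81 (SE; edgeR adjusted p = 8.02e-07). At week 10 all PyMT libraries were at 0 and the FVB group held 295 counts, so the fitted value of that week depends on the prior count. PyMT replicate 2 and the 3 FVB replicates of that week were among the libraries whose counts pile up, so no bound is given. The call of week 8 was lost without FVB replicate 2, FVB replicate 3, PyMT replicate 1 or PyMT replicate 2 (adjusted p from 0.0584 to 0.119). Of the 50-base words of its transcript, 11.3% also occur in other genes, most of them in Cyp3a59, which had 0 counts.

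Cyp1b1 (ENSMUSG00000024087, chr17:80106234-80114401, minus strand of mm9) encodes an enzyme that oxidises estradiol and polycyclic aromatic hydrocarbons and is known outside the liver. In FVB, Cyp1b1 stood at 287, 1011 and 815 normalized counts at week 6, 298, 1656 and 1017 at week 8, 274, 379.8 and 521 at week 10 and 436, 357 and 747 at week 12. In PyMT, Cyp1b1 stood at 321, 60.5 and 141 normalized counts at week 6, 124, 106 and 188 at week 8, 93.4, 60.8 and 154 at week 10 and 116, 73.7 and 62.8 at week 12. PyMT lay below FVB without overlap at weeks 8, 10 and 12, and at week 6 PyMT replicate 1 lay above the lowest FVB value. Cyp1b1 had log2 fold changes in PyMT against FVB of -2.01 ± 0.64, -2.81 ± 0.59, -1.86 ± 0.43 and -2.56 ± 0.36 (± SE) in weeks 6, 8, 10 and 12, with edgeR adjusted p of 0.0807, 0.0231, 0.0235 and 0.0016. For Cyp1b1 the log2 fold change over all 4 weeks was -2.32 ± 0.30 (SE; edgeR adjusted p = 1.79e-06). The week 12 call was kept in all alternatives. The week 8 call was lost without any one of 5 libraries (FVB replicates 2 and 3 and the 3 PyMT replicates, adjusted p from 0.0539 to 0.0949), and the week 10 call without FVB replicate 2, PyMT replicate 1 or PyMT replicate 2 (0.0536, 0.0974 and 0.0635).

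The Cyp2d subfamily, whose human counterpart oxidises many drugs, held members that differed in opposite directions. Cyp2d22 (ENSMUSG00000061740, chr15:82200958-82210690, minus strand of mm9) was the most abundant of them. In FVB, Cyp2d22 stood at 342, 127 and 192 normalized counts at week 6, 564, 330.3 and 273 at week 8, 285, 348 and 241 at week 10 and 515, 437 and 483 at week 12. In PyMT, Cyp2d22 stood at 97.0, 100.1 and 76.0 normalized counts at week 6, 162, 161 and 146 at week 8, 149, 212 and 131 at week 10 and 161, 169 and 209.8 at week 12. Its PyMT values lay below the FVB values of the same week at all 4 weeks, and both genotypes had higher values at week 12 than at week 6. Cyp2d22 had log2 fold changes in PyMT against FVB of -1.29 ± 0.43, -1.30 ± 0.33, -0.79 ± 0.32 and -1.36 ± 0.21 (± SE) in weeks 6, 8, 10 and 12, with edgeR adjusted p of 0.0966, 0.0424, 0.14 and 0.00236. For Cyp2d22 the log2 fold change over all 4 weeks was -1.20 ± 0.16 (SE; edgeR adjusted p = 2.78e-06). The gene was called lower at weeks 8 and 12. The call of week 8 was lost without FVB replicates 1 or 2 or any PyMT replicate (adjusted p from 0.0674 to 0.127), with scaling by library size alone (0.0598) and with the replicate number as a block (0.0654), and with limma voom its log2 fold change was -0.99, under the threshold. The call over the 4 weeks was lost with scaling by library size alone, where the log2 fold change was -0.88.

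Cyp2d10 (ENSMUSG00000014372, chr15:82233276-82237624, minus strand of mm9) was one of the 2 members called higher over the 4 weeks. In FVB, Cyp2d10 stood at 11.6, 10.0 and 2.64 normalized counts at week 6, 0, 10.5 and 5.65 at week 8, 1.44, 0 and 0 at week 10 and 0, 1.26 and 2.19 at week 12. In PyMT, Cyp2d10 stood at 37.4, 0 and 39.7 normalized counts at week 6, 44.8, 114 and 55.3 at week 8, 23.1, 60.8 and 19.6 at week 10 and 0, 26.7 and 33.3 at week 12. It was at or near 0 in FVB, where no library passed 11.6, and PyMT lay above FVB without overlap at weeks 8 and 10. Cyp2d10 had log2 fold changes in PyMT against FVB of 1.67 ± 1.61, 3.69 ± 1.23, 5.68 ± 1.73 and 3.98 ± 1.69 (± SE) in weeks 6, 8, 10 and 12, with edgeR adjusted p of 0.56, 0.0954, 0.0626 and 0.118. For Cyp2d10 the log2 fold change over all 4 weeks was 3.75 ± 0.83 (SE; edgeR adjusted p = 0.000717). At week 10 the groups held 107 counts in PyMT and 2 in FVB, and at week 12 61 and 3. No single week passed the threshold by edgeR's quasi-likelihood test, although 3, 3 and 2 of 16 alternatives called the gene at weeks 8, 10 and 12. The PyMT values at 0, in week 6 replicate 2 and week 12 replicate 1, came from libraries whose counts pile up. Cyp2d9 and Cyp2d11, which were not tested, were likewise seen mainly in PyMT: in weeks 6, 8, 10 and 12 the PyMT groups held 63, 71, 27 and 29 counts of Cyp2d9 and the FVB groups 1, 2, 0 and 0. Cyp2d11 was at 0 in all 12 FVB libraries and reached 22.6 normalized counts in PyMT. These genes share sequence, since 38.4% of the 50-base words of Cyp2d10 occur in other genes, most of them in Cyp2d11, and their heme-binding stretches are shown as an example of how few bases separate them, so that reads can be split between them.
Cyp2d9: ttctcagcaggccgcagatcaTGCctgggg
Cyp2d10: ttctcagcaggccgcagatcaTGCctgggt
Cyp2d11: ttctcagcaggacacagatcaTGCctgggg
Cyp2d22: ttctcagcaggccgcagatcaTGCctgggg
Over these 30 bases Cyp2d9 and Cyp2d22 were the same, Cyp2d10 differed from both in 1 base and Cyp2d11 from Cyp2d9 in 2. The values of Cyp2d9, Cyp2d10 and Cyp2d11 are therefore uncertain as values of single genes.

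Cyp2f2 (ENSMUSG00000052974, chr7:27904928-27918679, plus strand of mm9), known for the oxidation of naphthalene in lung, was not called at any week. In FVB, Cyp2f2 stood at 122, 114 and 52.0 normalized counts at week 6, 143, 48.8 and 44.1 at week 8, 79.1, 145 and 254 at week 10 and 75.3, 281 and 13.1 at week 12. In PyMT, Cyp2f2 stood at 95.3, 62.6 and 157 normalized counts at week 6, 176, 98.4 and 141 at week 8, 86.3, 37.7 and 97.2 at week 10 and 48.3, 128 and 66.5 at week 12. The groups overlapped at every week. Cyp2f2 had log2 fold changes in PyMT against FVB of 0.13 ± 0.55, 0.84 ± 0.58, -1.04 ± 0.60 and -0.55 ± 0.89 (± SE) in weeks 6, 8, 10 and 12, with edgeR adjusted p of 0.908, 0.393, 0.297 and 0.688. For Cyp2f2 the log2 fold change over all 4 weeks was -0.17 ± 0.38 (SE; edgeR adjusted p = 0.739). Its exons overlap Gm15883 on the opposite strand, and since the strand setting of the counting is not given in the sources used here, reads of the pair cannot be told apart. Cyp2s1, a member expressed in epithelia, ran from 0 to 52.3 normalized counts in FVB and from 0 to 52.1 in PyMT, with a log2 fold change over the 4 weeks of -1.05 ± 0.92 (SE; edgeR adjusted p = 0.361), and its exons overlap Gm17445 on the opposite strand. Cyp2b10, the phenobarbital-inducible member, and Cyp2b19 were not tested: Cyp2b10 had 149 normalized counts in FVB week 8 replicate 1 and 32.8 in FVB week 12 replicate 2 but at most 5.03 in any other library, and Cyp2b19 had 81.9 in FVB week 12 replicate 2. Each of these levels rests on 1 or 2 libraries. Cyp2c70 reached 29.7 in FVB and was at 0 in PyMT, Cyp2c44 reached 16.7 and 11.3, and Cyp2j12, Cyp2c55, Cyp2d26, Cyp2d34 and Cyp2t4 were at most 23.6 in any library. Of the untested Cyp3a genes, Cyp3a13, Cyp3a16 and Cyp3a44 reached at most 3.39.

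Members that act on fatty acids and eicosanoids were lower in PyMT or did not pass the test. Cyp4b1 (ENSMUSG00000028713, chr4:115297303-115320322, minus strand of mm9) encodes an enzyme of fatty acid and protoxin oxidation outside the liver. In FVB, Cyp4b1 stood at 429, 332 and 707 normalized counts at week 6, 691, 536 and 593 at week 8, 637, 1170.3 and 429 at week 10 and 603, 481 and 859 at week 12. In PyMT, Cyp4b1 stood at 58.8, 115 and 61.8 normalized counts at week 6, 94.4, 0 and 91.8 at week 8, 60.5, 50.3 and 81.9 at week 10 and 79.2, 63.0 and 52.7 at week 12. All 12 PyMT values lay below all 12 FVB values, with PyMT week 8 replicate 2, a library whose counts pile up, at 0. Cyp4b1 had log2 fold changes in PyMT against FVB of -2.66 ± 0.40, -3.24 ± 1.05, -3.48 ± 0.44 and -3.27 ± 0.29 (± SE) in weeks 6, 8, 10 and 12, with edgeR adjusted p of 0.0054, 0.0885, 0.00178 and 0.000314. For Cyp4b1 the log2 fold change over all 4 weeks was -3.17 ± 0.36 (SE; edgeR adjusted p = 2.96e-07). It was called lower at weeks 6, 10 and 12, and each of these calls was kept in all alternatives. Week 8, with the library at 0 among its 3, had the largest standard error of the 4 weeks.

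Cyp4v3 (ENSMUSG00000079057, chr8:46391155-46418570, minus strand of mm9) is the mouse counterpart of the human fatty acid hydroxylase gene mutated in Bietti crystalline dystrophy. In FVB, Cyp4v3 stood at 356, 265 and 383 normalized counts at week 6, 911, 451 and 627 at week 8, 553, 934 and 471 at week 10 and 513, 378 and 663 at week 12. In PyMT, Cyp4v3 stood at 65.9, 84.5 and 64.1 normalized counts at week 6, 141, 75.9 and 120.0 at week 8, 96.1, 74.4 and 73.4 at week 10 and 231, 129 and 73.9 at week 12. The 12 PyMT values lay below the 12 FVB values, and PyMT week 12 replicate 1 came nearest to them. Cyp4v3 had log2 fold changes in PyMT against FVB of -2.24 ± 0.31, -2.54 ± 0.37, -2.95 ± 0.34 and -1.80 ± 0.40 (± SE) in weeks 6, 8, 10 and 12, with edgeR adjusted p of 0.00384, 0.00774, 0.00124 and 0.013. For Cyp4v3 the log2 fold change over all 4 weeks was -2.39 ± 0.19 (SE; edgeR adjusted p = 1.65e-09). It was called at all 4 weeks, and the call of week 12 was lost without PyMT replicate 2 (adjusted p = 0.0535). Its exons overlap Klkb1 on the same strand, and Klkb1 had at most 1.56 normalized counts in FVB and 10.3 in PyMT.

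The Cyp4f subfamily, whose members hydroxylate leukotrienes and long-chain fatty acids, had 3 tested genes. Cyp4f13 (ENSMUSG00000024055, chr17:33061633-33084347, minus strand of mm9) was lower in PyMT. In FVB, Cyp4f13 stood at 263, 219 and 262 normalized counts at week 6, 206, 204 and 249.7 at week 8, 224, 247 and 595 at week 10 and 293, 227 and 276 at week 12. In PyMT, Cyp4f13 stood at 159, 141 and 140.1 normalized counts at week 6, 120.2, 173 and 101 at week 8, 102, 25.2 and 105 at week 10 and 151, 78.0 and 130.3 at week 12. All 12 PyMT values lay below all 12 FVB values. Cyp4f13 had log2 fold changes in PyMT against FVB of -0.76 ± 0.27, -0.74 ± 0.32, -2.12 ± 0.63 and -1.10 ± 0.30 (± SE) in weeks 6, 8, 10 and 12, with edgeR adjusted p of 0.117, 0.184, 0.058 and 0.0296. For Cyp4f13 the log2 fold change over all 4 weeks was -1.19 ± 0.21 (SE; edgeR adjusted p = 7.40e-05). Its week 12 call was lost without FVB replicate 1 or 3 or PyMT replicate 2 or 3 (adjusted p from 0.0713 to 0.0852), in the joint fit (0.0627) and with scaling by library size alone (0.0887).

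Cyp4f16 (ENSMUSG00000048440, chr17:32673503-32688743, plus strand of mm9) did not pass the test at any week. In FVB, Cyp4f16 stood at 81.1, 133 and 162 normalized counts at week 6, 125, 142 and 186 at week 8, 192, 66.1 and 28.2 at week 10 and 90.1, 194 and 175 at week 12. In PyMT, Cyp4f16 stood at 127, 114 and 108 normalized counts at week 6, 62.0, 148 and 112 at week 8, 137, 191 and 158 at week 10 and 169, 135 and 117 at week 12. The groups overlapped at all 4 weeks. Cyp4f16 had log2 fold changes in PyMT against FVB of -0.12 ± 0.41, -0.49 ± 0.43, 0.79 ± 0.68 and -0.08 ± 0.36 (± SE) in weeks 6, 8, 10 and 12, with edgeR adjusted p of 0.888, 0.516, 0.494 and 0.887. For Cyp4f16 the log2 fold change over all 4 weeks was 0.01 ± 0.25 (SE; edgeR adjusted p = 0.966). Of its 50-base words, 26.5% also occur in other genes, most in Gm9705.

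Cyp4f17 (ENSMUSG00000091586, chr17:32643407-32665839, plus strand of mm9) was likewise not called. In FVB, Cyp4f17 stood at 125, 120.3 and 167 normalized counts at week 6, 160.2, 122 and 181 at week 8, 75.5, 148 and 76.7 at week 10 and 200.4, 269.7 and 184 at week 12. In PyMT, Cyp4f17 stood at 75.7, 136 and 63.0 normalized counts at week 6, 90.6, 111 and 112 at week 8, 91.6, 77.5 and 206 at week 10 and 191, 109 and 146 at week 12. PyMT lay below FVB without overlap only at week 8. Cyp4f17 had log2 fold changes in PyMT against FVB of -0.61 ± 0.44, -0.55 ± 0.36, 0.38 ± 0.57 and -0.51 ± 0.30 (± SE) in weeks 6, 8, 10 and 12, with edgeR adjusted p of 0.426, 0.369, 0.713 and 0.253. For Cyp4f17 the log2 fold change over all 4 weeks was -0.33 ± 0.20 (SE; edgeR adjusted p = 0.181). Of the untested Cyp4f genes, Cyp4f15 had 8.07, 47.9 and 50.3 normalized counts in FVB and 0 in all 3 PyMT libraries at week 12. Without a filter on low counts, the log2 fold changes of Cyp4f15 were -1.16, -1.34, -4.18 and -7.98 at weeks 6, 8, 10 and 12, with edgeR adjusted p of 0.878, 0.852, 0.467 and 0.00795, and the last of these depends on the prior count. Cyp4f18 reached 157 and 24.0 in FVB week 10 replicates 1 and 2 and at most 13.4 in any other library, and Cyp4f39 ran from 0 to 39.6 in FVB and from 0 to 36.3 in PyMT. Cyp4f14 and Cyp4a10, a fatty acid hydroxylase of liver, had at most 10.1 normalized counts in any library, and Cyp4f40, Cyp4x1 and Cyp4a32 at most 3.52.

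Cyp2j6 (ENSMUSG00000052914, chr4:96182829-96220352, minus strand of mm9) belongs to a subfamily of arachidonic acid epoxygenases. In FVB, Cyp2j6 stood at 199, 262 and 160.3 normalized counts at week 6, 174, 108 and 144 at week 8, 183, 269.5 and 338 at week 10 and 273, 263 and 229.6 at week 12. In PyMT, Cyp2j6 stood at 20.5, 121 and 40.8 normalized counts at week 6, 53.4, 30.9 and 27.6 at week 8, 38.3, 0 and 19.6 at week 10 and 28.8, 55.6 and 44.4 at week 12. Within each week the PyMT values lay below the FVB values, and PyMT week 10 replicate 2, a library whose counts pile up, was at 0. Cyp2j6 had log2 fold changes in PyMT against FVB of -1.80 ± 0.63, -1.91 ± 0.51, -3.68 ± 1.07 and -2.52 ± 0.34 (± SE) in weeks 6, 8, 10 and 12, with edgeR adjusted p of 0.109, 0.0497, 0.0538 and 0.00134. For Cyp2j6 the log2 fold change over all 4 weeks was -2.49 ± 0.37 (SE; edgeR adjusted p = 1.05e-05). Its week 12 call was kept in all alternatives. That of week 8, at an adjusted p next to the threshold, was lost in 11 of 16, among them without any one of the 6 libraries (0.0849 to 0.145).

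Cyp2j9 (ENSMUSG00000015224, chr4:96235120-96258269, minus strand of mm9), of the same subfamily, was called over the 4 weeks and at no single week. In FVB, Cyp2j9 stood at 82.3, 80.2 and 50.2 normalized counts at week 6, 66.9, 93.0 and 76.8 at week 8, 45.3, 67.1 and 90.8 at week 10 and 105, 60.5 and 166 at week 12. In PyMT, Cyp2j9 stood at 43.6, 55.3 and 8.51 normalized counts at week 6, 10.5, 30.003 and 8.23 at week 8, 5.34, 0 and 3.41 at week 10 and 55.5, 22.4 and 0 at week 12. The groups overlapped at week 6 and lay apart at weeks 8, 10 and 12. Cyp2j9 had log2 fold changes in PyMT against FVB of -1.01 ± 0.80, -2.29 ± 0.78, -4.39 ± 1.35 and -2.06 ± 1.10 (± SE) in weeks 6, 8, 10 and 12, with edgeR adjusted p of 0.466, 0.101, 0.0638 and 0.202. For Cyp2j9 the log2 fold change over all 4 weeks was -2.44 ± 0.54 (SE; edgeR adjusted p = 0.000712).

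Cyp2u1 (ENSMUSG00000027983, chr3:130993409-131006145, minus strand of mm9) encodes a hydroxylase of long-chain fatty acids. In FVB, Cyp2u1 stood at 103, 84.1 and 82.8 normalized counts at week 6, 127, 83.7 and 58.8 at week 8, 122, 97.2 and 105 at week 10 and 238, 126 and 106 at week 12. In PyMT, Cyp2u1 stood at 0, 0 and 18.7 normalized counts at week 6, 19.1, 0 and 14.7 at week 8, 12.5, 0 and 19.6 at week 10 and 0, 3.21 and 21.3 at week 12. All FVB values lay above all PyMT values, of which 5 of 12 were at 0. These were week 6 replicates 1 and 2, week 8 replicate 2, week 10 replicate 2 and week 12 replicate 1. All are among the libraries whose counts pile up, where a count of 0 sets no limit on the level. Cyp2u1 had log2 fold changes in PyMT against FVB of -3.73 ± 1.50, -2.95 ± 1.21, -3.25 ± 1.22 and -4.15 ± 1.04 (± SE) in weeks 6, 8, 10 and 12, with edgeR adjusted p of 0.156, 0.161, 0.116 and 0.0198. For Cyp2u1 the log2 fold change over all 4 weeks was -3.54 ± 0.72 (SE; edgeR adjusted p = 0.000312). The call of week 12 was lost without FVB replicate 1 (adjusted p = 0.0596) or PyMT replicate 2 (0.0702). Its exons overlap 4930534D22Rik on the opposite strand.

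Of the tested members that handle vitamin D and vitamin A, Cyp24a1 was higher and Cyp26b1 lower in PyMT than in FVB over the 4 weeks. Cyp24a1 (ENSMUSG00000038567, chr2:170308208-170322645, minus strand of mm9) encodes the mitochondrial enzyme that inactivates the hormonal form of vitamin D. In FVB, Cyp24a1 stood at 0, 0 and 2.64 normalized counts at week 6, 1.26, 0 and 4.52 at week 8, 0, 8.02 and 0 at week 10 and 0, 52.9 and 7.65 at week 12. In PyMT, Cyp24a1 stood at 227, 28.2 and 114 normalized counts at week 6, 111, 73.1 and 105 at week 8, 112, 77.5 and 72.5 at week 10 and 124, 59.8 and 76.7 at week 12. PyMT lay above FVB without overlap at all 4 weeks, with FVB week 12 replicate 2 as the highest FVB value. Cyp24a1 had log2 fold changes in PyMT against FVB of 6.94 ± 1.38, 5.56 ± 1.10, 5.00 ± 1.55 and 2.14 ± 1.13 (± SE) in weeks 6, 8, 10 and 12, with edgeR adjusted p of 0.016, 0.0193, 0.066 and 0.2. For Cyp24a1 the log2 fold change over all 4 weeks was 4.89 ± 0.74 (SE; edgeR adjusted p = 1.12e-05). At week 6 the groups held 483 counts in PyMT and 3 in FVB. The call of week 6 was lost without FVB replicate 2 (adjusted p = 0.0558) or PyMT replicate 1 (0.0762) and with limma voom (0.117), and that of week 8 without PyMT replicate 1 (0.0901) or 3 (0.0763). The exons of Cyp24a1 overlap Pfdn4 on the opposite strand. Pfdn4 ran from 30.9 to 203 normalized counts in FVB and from 109.7 to 305 in PyMT, with a log2 fold change of 1.11 at week 6 (edgeR adjusted p = 0.132) and of 0.62 over the 4 weeks (0.0248), and reads of the pair cannot be told apart.

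The enzymes that make the hormone were low. Cyp27b1, which makes the hormonal form of vitamin D, was not tested and ran from 0 to 40.7 normalized counts in FVB and from 0 to 9.24 in PyMT, and Cyp2r1, which makes its precursor, ran from 0 to 35.0 and from 0 to 11.3. Under a weaker filter, of 1 CPM in 3 libraries, Cyp27b1 was called lower over the 4 weeks, at a log2 fold change of -2.66 (edgeR adjusted p = 0.0324). With no filter on low counts the log2 fold change was also -2.66, but Cyp27b1 was not called (edgeR adjusted p = 0.0522). The vitamin D receptor gene Vdr, from a list of regulators, ran from 155 to 481 normalized counts in FVB and 562 to 985 in PyMT, with a log2 fold change over the 4 weeks of 1.52 ± 0.16 (SE; edgeR adjusted p = 7.89e-08). It was called higher at weeks 8, 10 and 12, and its FVB and PyMT ranges did not overlap.

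The Cyp26 genes encode the enzymes that break down retinoic acid. Cyp26b1 (ENSMUSG00000063415, chr6:84521938-84543740, minus strand of mm9) was the one tested. In FVB, Cyp26b1 stood at 26.7, 57.1 and 107 normalized counts at week 6, 496, 3.49 and 61.0 at week 8, 31.6, 46.1 and 20.3 at week 10 and 149, 73.1 and 94.0 at week 12. In PyMT, Cyp26b1 stood at 0.890, 26.1 and 0 normalized counts at week 6, 3.82, 35.6 and 5.29 at week 8, 8.01, 0 and 11.1 at week 10 and 0, 9.62 and 5.54 at week 12. The groups lay apart at weeks 6, 10 and 12, whereas at week 8 the FVB libraries ran from 3.49 to 496 and overlapped with PyMT. Cyp26b1 had log2 fold changes in PyMT against FVB of -2.88 ± 1.60, -3.67 ± 1.56, -2.27 ± 1.54 and -4.30 ± 0.95 (± SE) in weeks 6, 8, 10 and 12, with edgeR adjusted p of 0.295, 0.172, 0.376 and 0.0119. For Cyp26b1 the log2 fold change over all 4 weeks was -3.29 ± 0.78 (SE; edgeR adjusted p = 0.00141). Its week 12 call was lost in the joint fit (adjusted p = 0.0679). The value of week 8 ran from -5.26 to -1.10 over the alternatives and was -1.10 (edgeR adjusted p = 0.692) without FVB replicate 1, the library at 496.

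Cyp26a1 (ENSMUSG00000024987, chr19:37772298-37776018, plus strand of mm9) had nearly all of its counts in PyMT and did not pass the filter on low counts. In FVB, Cyp26a1 had 0 counts in 10 of the 12 libraries, 4 counts in week 8 replicate 3 and 8 in week 12 replicate 2. In PyMT, Cyp26a1 had 0 counts in all 3 libraries of week 6, 31, 12 and 73 at week 8, 46, 25 and 39 at week 10, and 43, 65 and 9 at week 12. The PyMT levels were 29.6, 11.3 and 42.9 normalized counts at week 8, 40.9, 26.2 and 33.3 at week 10 and 44.2, 69.4 and 8.32 at week 12. At weeks 8 and 10 every PyMT library lay above every FVB library. At week 10 the groups held 110 counts in PyMT and 0 in FVB, whose 3 libraries were among those with counts that pile up, so no bound is given. Without a filter on low counts its edgeR adjusted p was 0.291, 0.0714 and 0.120 at weeks 8, 10 and 12, so no week passed. Cyp26c1 ran from 0 to 49.1 normalized counts in FVB and from 0 to 18.1 in PyMT.

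The promoter of Cyp26a1 is shown because retinoic acid receptors are known to bind direct repeats of the kind found in it. In 32544 promoter windows of RefSeq on GRCm38.p6, each from 250 bases before to 50 bases after a start, 2 half-sites, each with the letters AGGTCA, the letters AGTTCA, the letters GGGTCA or the letters GGTTCA, in the same direction with 5 bases between them were searched on both strands, and 0.0983% of the windows held such a repeat. Of the 96 members 72 matched a window by symbol, and Cyp26a1 was the one with the repeat. The run covers chr19:37697736-37697832 of GRCm38.p6 on the plus strand, with the repeat in capitals, which reads on the minus strand and lies 16 to 32 bases before the start.
Cyp26a1 promoter: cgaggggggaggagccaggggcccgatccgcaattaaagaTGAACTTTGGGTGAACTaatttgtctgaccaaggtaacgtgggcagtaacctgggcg
A match is a description of the letters and not a measured binding site.

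**Figure D5:**
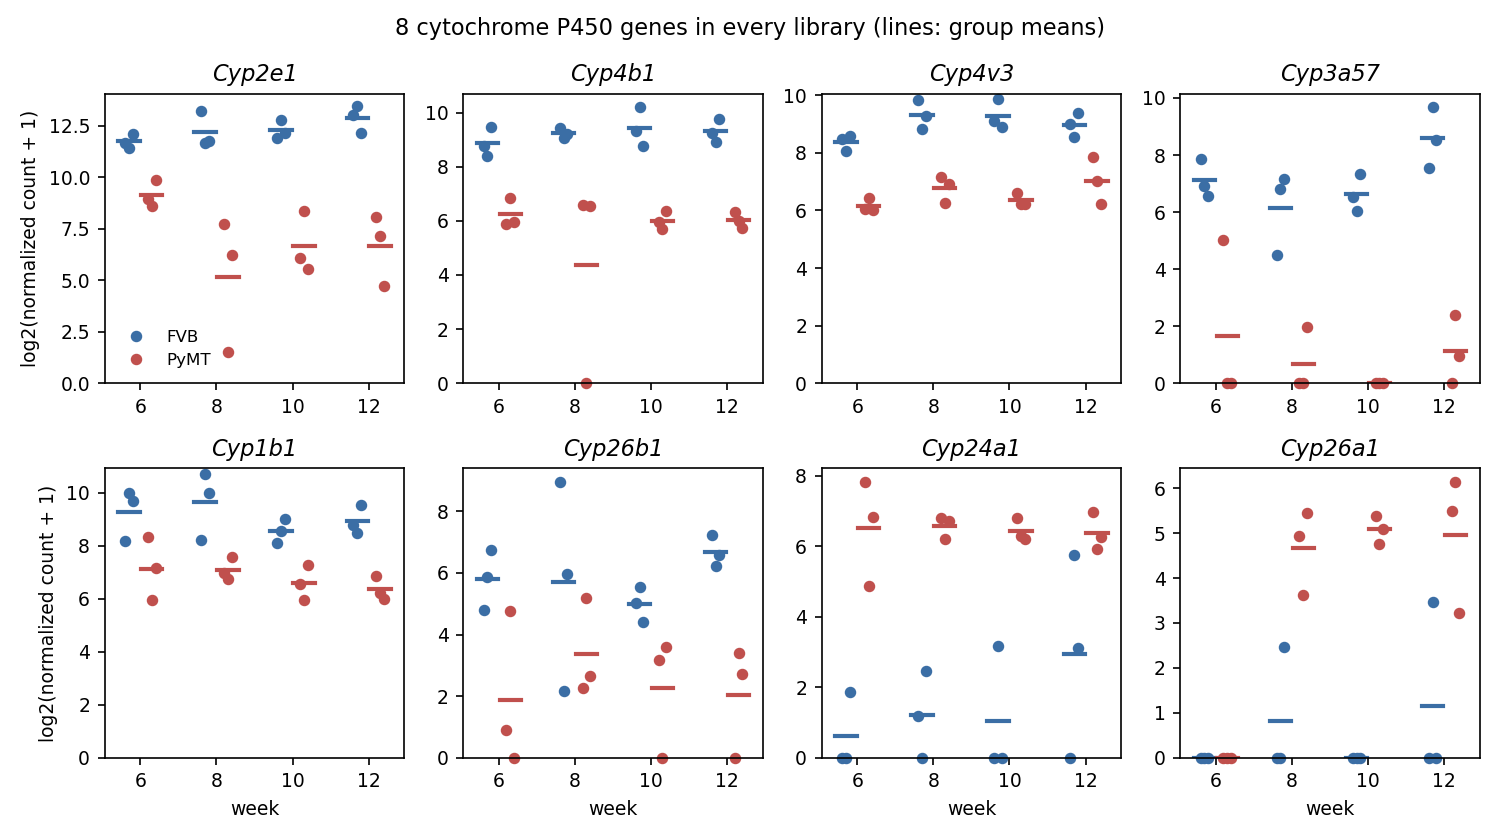
Level of 8 members as log2(normalized count + 1) by week, 1 point per library, with FVB in blue, PyMT in red and lines at the means of these log2 values. Cyp2e1, Cyp4b1, Cyp4v3 and Cyp3a57 lie lower in PyMT within every week, Cyp24a1 lies higher, and Cyp26a1 is at 0 in both genotypes at week 6 and higher in PyMT at weeks 8 and 10.

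Of the 4 tested members of sterol and bile acid metabolism, Cyp27a1 and Cyp39a1 were called lower at week 12 by edgeR. Cyp27a1 (ENSMUSG00000026170, chr1:74760148-74784464, plus strand of mm9) encodes the mitochondrial sterol hydroxylase that starts the acidic pathway of bile acid synthesis. In FVB, Cyp27a1 stood at 223, 132 and 148 normalized counts at week 6, 212, 256 and 130.0 at week 8, 82.7, 159 and 139 at week 10 and 439, 95.8 and 364 at week 12. In PyMT, Cyp27a1 stood at 24.0, 168 and 77.2 normalized counts at week 6, 84.0, 142 and 42.3 at week 8, 41.8, 127 and 54.6 at week 10 and 17.5, 27.8 and 50.8 at week 12. The groups overlapped at weeks 6, 8 and 10 and lay apart at week 12. Cyp27a1 had log2 fold changes in PyMT against FVB of -0.92 ± 0.65, -1.17 ± 0.51, -0.73 ± 0.58 and -3.16 ± 0.63 (± SE) in weeks 6, 8, 10 and 12, with edgeR adjusted p of 0.408, 0.181, 0.462 and 0.00775. For Cyp27a1 the log2 fold change over all 4 weeks was -1.51 ± 0.32 (SE; edgeR adjusted p = 0.000552). The call of week 12 was kept in all alternatives.

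Cyp39a1 (ENSMUSG00000023963, chr17:43804374-43888380, plus strand of mm9) encodes an oxysterol hydroxylase. In FVB, Cyp39a1 stood at 98.5, 209 and 119.8 normalized counts at week 6, 90.8, 130.3 and 160.5 at week 8, 172, 54.1 and 36.0 at week 10 and 133, 152 and 179 at week 12. In PyMT, Cyp39a1 stood at 71.2, 53.2 and 91.3 normalized counts at week 6, 36.3, 60.9 and 56.5 at week 8, 47.2, 112 and 81.0 at week 10 and 32.9, 58.8 and 40.7 at week 12. PyMT lay below FVB without overlap at weeks 6, 8 and 12, and the groups overlapped at week 10, where FVB itself ran from 36.0 to 172. Cyp39a1 had log2 fold changes in PyMT against FVB of -0.98 ± 0.48, -1.30 ± 0.48, -0.10 ± 0.74 and -1.76 ± 0.38 (± SE) in weeks 6, 8, 10 and 12, with edgeR adjusted p of 0.233, 0.124, 0.951 and 0.0109. For Cyp39a1 the log2 fold change over all 4 weeks was -1.05 ± 0.26 (SE; edgeR adjusted p = 0.00226). The week 12 call was lost without FVB replicate 3 (adjusted p = 0.0502). The call over the 4 weeks was lost when any one of 7 libraries was left out, with log2 fold changes from -0.80 to -0.996, since its size was then under the threshold of 1, and with scaling by library size alone, at -0.79. The 7 libraries were FVB week 6 replicate 2, PyMT week 6 replicate 2, FVB week 8 replicate 3, PyMT week 8 replicate 1, replicates 1 of FVB and PyMT at week 10, and PyMT week 12 replicate 1.

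Cyp7b1 and Cyp46a1 did not pass the test in any comparison. Cyp7b1, an oxysterol hydroxylase, ran from 0 to 65.7 normalized counts in FVB and from 0 to 76.5 in PyMT, with a log2 fold change over the 4 weeks of -0.91 ± 0.76 (SE; edgeR adjusted p = 0.336). Cyp46a1, the cholesterol hydroxylase known from neurons, ran from 0 to 69.8 in FVB and from 5.67 to 88.1 in PyMT, with -0.02 ± 0.65 (SE; edgeR adjusted p = 0.979). The first enzyme of the classic bile acid pathway, Cyp7a1, had 1 count in 1 library.

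Steroid-making members were close to the limit of detection. Cyp11a1, which cleaves the side chain of cholesterol, ran from 0 to 24.0 normalized counts in FVB and from 0 to 16.5 in PyMT. Cyp17a1 reached 6.47 and Cyp21a1 17.8 in single libraries, Cyp11b2 had 1 count, and Cyp19a1 had 0. The exons of Cyp21a1 overlap Tnxa on the opposite strand. None of these was tested.

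Cyp20a1 (ENSMUSG00000049439, chr1:60400167-60444904, plus strand of mm9), an orphan member without an established substrate, did not pass the test at any week. In FVB, Cyp20a1 stood at 213, 231 and 212 normalized counts at week 6, 168, 238 and 185 at week 8, 309, 162 and 214 at week 10 and 168, 234 and 262 at week 12. In PyMT, Cyp20a1 stood at 311, 217 and 207 normalized counts at week 6, 235, 390.0 and 219 at week 8, 294, 397 and 211 at week 10 and 264, 247 and 227 at week 12. The groups overlapped at every week. Cyp20a1 had log2 fold changes in PyMT against FVB of 0.15 ± 0.28, 0.51 ± 0.31, 0.43 ± 0.36 and 0.20 ± 0.25 (± SE) in weeks 6, 8, 10 and 12, with edgeR adjusted p of 0.774, 0.334, 0.475 and 0.596. For Cyp20a1 the log2 fold change over all 4 weeks was 0.31 ± 0.15 (SE; edgeR adjusted p = 0.0787).

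Within a genotype, week 12 was compared with week 6, and other pairs of weeks were not tested. By edgeR's quasi-likelihood test in the joint fit, 0 of the 22 members and 0.00% of all 14918 tested genes were called between weeks 6 and 12 in PyMT, in FVB, or for the shift in the genotype difference between those weeks, while 1004, 625 and 691 genes had an unadjusted p under 0.05. In PyMT, 4 members had an unadjusted p under 0.05: on the log2 scale (± SE) Cyp2e1 by -2.05 ± 0.90 and Cyp27a1 by -1.45 ± 0.66, and Cyp2d22 by 0.99 ± 0.32 and Cyp4v3 by 1.02 ± 0.37, all with edgeR adjusted p of 0.44 or above. In FVB, 2 had one, Cyp2d22 by 1.09 ± 0.32 and Cyp24a1 by 4.29 ± 1.53, with edgeR adjusted p of 0.898 or above. The difference itself had 4 at this level, Cyp2e1, Cyp3a57, Cyp24a1 and Cyp27a1, with log2 values from -2.26 to -4.79 and edgeR adjusted p of 0.973 or above. DESeq2 called 0 in each of these comparisons, and limma voom called 1 member in FVB and 0 in the other two.

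Genes that serve the P450 enzymes were taken from lists of their partners and regulators. Their calls at weeks 6, 8, 10 and 12 stand beside 6.46%, 6.37%, 9.09% and 13.0% of all tested genes called lower and 3.58%, 3.57%, 4.83% and 7.75% called higher, and no list is said to stand apart from them. Por, which encodes the reductase that hands electrons to microsomal P450 enzymes, ran from 1445 to 3494 normalized counts in FVB and 103 to 781 in PyMT, with a log2 fold change over the 4 weeks of -2.46 ± 0.21 (SE; edgeR adjusted p = 3.00e-09), and was called lower at all 4 weeks. Of 9 tested electron donors and membrane partners, 1, 2, 2 and 3 were called lower at weeks 6, 8, 10 and 12 and 0 higher by edgeR, with 0, 1, 0 and 0 higher at an unadjusted p under 0.05. Cyb5b, a cytochrome b5 gene, was called lower at 3 weeks and ran from 1904 to 4137 normalized counts in FVB and 609.9 to 2044 in PyMT, with a log2 fold change over the 4 weeks of -1.46 ± 0.13 (SE; edgeR adjusted p = 7.07e-09). The median log2 fold change of this list was -0.13 over the 4 weeks, beside -0.03 over all tested genes.

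Of 13 genes of heme synthesis and breakdown, 1, 1, 4 and 4 were called lower and 0, 1, 2 and 0 higher at the 4 weeks. Alas1, the first and rate-limiting step of heme synthesis, ran from 856 to 2132 normalized counts in FVB and 220.1 to 573 in PyMT, with a log2 fold change over the 4 weeks of -1.79 ± 0.16 (SE; edgeR adjusted p = 1.02e-08), and was called lower at all 4 weeks. Alad and Fech, the next and the last enzyme of the route, were each called lower at weeks 10 and 12 but not over the 4 weeks, with log2 fold changes there of -0.89 ± 0.15 and -0.98 ± 0.15 (SE). Cpox, an enzyme between them, was called higher at weeks 8 and 10 and ran from 78.2 to 202 normalized counts in FVB and 190.2 to 429 in PyMT, with a log2 fold change over the 4 weeks of 1.14 ± 0.16 (SE; edgeR adjusted p = 4.09e-06).

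Of 17 tested receptors and factors known to regulate P450 genes, 4, 2, 3 and 5 were called lower and 0, 1, 1 and 1 higher, and the gene called higher was Vdr. The retinoid X receptor gene Rxrg, the retinoic acid receptor gene Rarb and Ppara, the receptor of fatty acids in liver, were each called lower at 2 weeks, and Pparg, the receptor that drives fat cell formation, at all 4. Over the 4 weeks their log2 fold changes were -4.58 ± 0.73, -3.55 ± 0.73, -3.55 ± 0.59 and -3.27 ± 0.34 (SE). Nr1i2 and Nr1i3, which encode the receptors known to switch on drug-oxidising P450 genes in liver, were not tested and had at most 14.2 and 1.13 normalized counts in any library. The aryl hydrocarbon receptor gene Ahr was present at a median of 408 in FVB and 631 in PyMT. It was not called, because its log2 fold changes stayed under the threshold of 1. They were 0.96 ± 0.19 at week 12 (SE; edgeR adjusted p = 0.00778) and 0.54 ± 0.16 over the 4 weeks (SE; edgeR adjusted p = 0.00984).

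Of 10 tested genes of retinoid supply and binding, 2, 1, 2 and 4 were called lower and 1, 1, 1 and 2 higher. Crabp2, which encodes a carrier of retinoic acid, was called higher at all 4 weeks and ran from 13.9 to 202 normalized counts in FVB and 288 to 816 in PyMT, with a log2 fold change over the 4 weeks of 2.78 ± 0.31 (SE; edgeR adjusted p = 2.12e-07). Dhrs3, an enzyme that reduces retinal, was called lower at all 4 weeks with -1.57 ± 0.15 (SE), and Rbp4, the carrier of retinol in blood, at 3 weeks with -4.41 ± 0.49. Of 2 tested epoxide hydrolases, Ephx2, which acts on the epoxides that Cyp2j enzymes make, was called lower at weeks 8, 10 and 12 and ran from 962 to 3611 normalized counts in FVB and 17.8 to 772 in PyMT, with a log2 fold change over the 4 weeks of -2.95 ± 0.33 (SE; edgeR adjusted p = 2.36e-07).

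Of 7 tested steroid hormone synthesis partners, 1 was called lower at every week, Hsd11b1, which regenerates active glucocorticoid, with -3.19 ± 0.33 (SE) over the 4 weeks, and 1, 0, 0 and 0 were called higher by edgeR, with 2, 2, 0 and 2 higher at an unadjusted p under 0.05. Of 9 other tested oxidising enzymes of drug metabolism, 4, 5, 5 and 6 were called lower and 0 higher at any week by edgeR, with 0 higher also at an unadjusted p under 0.05. The 4 of these with the largest change among those called at 2 or more weeks were Adh1, Fmo2, Fmo1 and Maob, with log2 fold changes over the 4 weeks of -3.92 ± 0.53, -3.37 ± 0.36, -3.27 ± 0.26 and -3.22 ± 0.25 (SE). The 3 P450 genes outside the symbol rule were Cyp51 of cholesterol synthesis, Tbxas1 (thromboxane synthase) and Ptgis (prostacyclin synthase). They were called at no single week by edgeR, where at most 1 in each direction had an unadjusted p under 0.05. The higher one was Cyp51 at week 6, at 0.98 ± 0.21 (SE; edgeR adjusted p = 0.0206), just under the threshold of 1. Over the 4 weeks Tbxas1 and Ptgis were called lower, at -1.03 ± 0.31 and -2.51 ± 0.65 (SE).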

How the data were processed

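RNA was taken from mammary tumors of PyMT mice and mammary glands of FVB mice, 1 mouse per library and 3 per group. The authors depleted ribosomal RNA, made directional libraries, aligned reads with GSNAP to mm9, and deposited raw counts that HTSeq gave for each Ensembl gene. The strand setting of the counting is not given in the sources used here. Total counts per library ran from 6969375 to 13516601, and the limits set by a count of 0 cover counting error only.

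Counts were tested as deposited with edgeR 4.0.16 (R 4.3.3): quasi-likelihood fits with TMM scaling, 6 libraries per week, and 1 fit of all 24 libraries in 8 groups for comparisons across weeks. The 14918 genes that reached 1 CPM in 12 or more of the 24 libraries were tested, with Benjamini-Hochberg adjustment over all of them. A standard error is the size of the log2 fold change divided by the square root of F. Printed levels are counts divided by DESeq2 1.42.0 size factors. Annotation was GENCODE M1 on mm9. Alternatives were edgeR's exact test, DESeq2, limma 3.58.1 voom, other scalings and filters, the replicate number as a block, division of the counts by packet size (the count at which a library's genes pile up), a joint fit, and leaving out each library. No 2 replicates agreed within sampling noise (chi-square per gene 19.3 to 244 over 24 pairs). The p-values measure the spread between libraries, and with 1 mouse per library, differences between mice and between library preparations cannot be told apart. The edgeR quasi-likelihood steps were tried on simulated counts in a separate fit, without counts that pile up. Across weeks that fit used week and genotype as added terms in place of the 8 groups. The alternatives were not tried in this way. The 96 members and the lists were chosen with earlier results of these data known. All tested members are named, with every library's value for those with a group mean of at least 100 or called at 2 or more weeks, and of untested members those with a group mean of at least 10 or a count in at least 2 libraries. Of the other lists, genes called at 2 or more weeks are named, at most 4 per list and direction. Amino acid sequences were not used here.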

Additional observations from a re-analysis of the deposited data

Results flagged for a closer look

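In 2 members, the PyMT libraries of 1 week all lay above the FVB mean of that week and those of another week all below it. The values were taken on the log2(normalized count + 1) scale. How many of all tested genes have this pattern was not counted, so it is not read as particular to these members. For Cyp2f2 the mean difference was 0.985 at week 8 and -1.06 at week 10. For Cyp4f16 the mean difference was -0.557 at week 8 and 1.16 at week 10. Its PyMT replicate 2 of week 8 lay only just below the FVB mean. Its lowest FVB value of week 10, at 28.2 normalized counts, was in replicate 3, the library with the largest share of moderately expressed genes at a count of 0 (4.40%). That library also had the highest skeletal muscle marker sum of all libraries, 608363, and the lowest luminal and general epithelial marker sum, 4341. Whether any of these bears on its Cyp4f16 value was not tested. The difference between the weeks was not tested, and in both genes the values of the 2 genotypes overlapped at those weeks. Neither gene was called at week 8 or 10, with edgeR adjusted p of 0.393 and 0.297 for Cyp2f2 and 0.516 and 0.494 for Cyp4f16.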

How the results depend on the processing

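No called value of a member and no median of the 22 changed sign in any alternative run. Uncalled values did cross 0, among them Cyp2s1 at week 10 (-0.81 to 5.43), Cyp46a1 at week 6 (-1.14 to 0.92) and Cyp2f2 over the 4 weeks (-0.30 to 0.77). At week 6 the 3 lower calls became 6 with DESeq2, 5 with limma voom, 7 with counts divided by packet size, 5 in the joint fit and 3 to 5 with 1 library left out, and the 1 higher call became 0 with voom and 0 to 1 with a library left out. The median log2 fold change of week 6 was -1.54 with voom, -0.74 with library size only and -1.40 to -0.85 with a library left out. At week 8 the 6 lower calls became 10 with DESeq2, 11 with packet size and 1 to 4 with a library left out, the 1 higher call became 2 with the exact test, DESeq2, voom and packet size and 0 to 1 with a library left out, and the median ran from -1.57 to -1.24. At week 10 the 5 lower calls became 9 with the exact test, DESeq2, voom and packet size, 8 in the joint fit and 4 to 5 with a library left out, and the 0 higher calls became 2 with the exact test, DESeq2 and the joint fit, 1 with voom and packet size and 0 to 1 with a library left out. The median of week 10 was -1.24 with voom, -0.58 with library size only, -1.15 with packet size and -1.46 to -0.78 with a library left out. At week 12 the 12 lower calls became 9 to 12 with a library left out, the 0 higher calls became 1 with voom and packet size and 0 to 1 with a library left out, and the median was -1.25 with library size only and -1.66 to -1.47 with a library left out. Over the 4 weeks the 13 lower calls became 12 to 14 with a library left out, and the 2 higher calls became 4 with no filter and stayed at 2 with a library left out. In FVB, week 12 against week 6, voom called 1 higher. The causes were not tested.

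Replicate numbers were not taken to pair the mice, since deviations of same-numbered samples correlated from -0.0251 to 0.177 over 12 pairs, with 4 above 0.1. With the replicate number as a block, 3, 4, 6 and 12 members were called lower at weeks 6, 8, 10 and 12 and 13 over the 4 weeks, with 1, 1, 0, 0 and 2 higher, and the median was -1.17 at week 10 and -1.84 at week 12. Of 28 single-week calls, 14 were kept in every alternative, and of 15 calls over the 4 weeks, 12 were. Of 60 uncalled values of a member at a week, 23 were called in at least 1 alternative. Low counts limit the rest: 74 members were not tested, and with 3 mice a group a single library decided many calls of week 8.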
